A study of Mus musculus with 3 samples.

Results

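The Tppp-Fgf11 state is a group of female mouse germ cells at embryonic day 14.5 (E14.5), found by the genes they express in single-cell RNA sequencing. Each E14.5 cell was scored on 3 sets of 6 genes, as the mean of the genes' z-scores over all E14.5 cells, and took the state of its highest set. The members were thus chosen by measured levels of these 18 genes, which are left out of the findings. The Tppp-Fgf11 state (state C) has the set Tppp, Fgf11, Lypd4, Madd, Syt14 and Mtl5, and it held 3600 of the 9075 E14.5 cells (39.7%), out of 19144 cells in the 3 libraries. It was compared with the Rec8-Msx1 state (state A: Msx1, Rec8, Ccnd1, Synpr, Sp5 and Matk; 3050 cells, 33.6%) and the Cdh15-Dlx3 state (state B: Cdh15, Tbata, Dync1i1, Dlx3, Tacc2 and Batf3; 2425 cells, 26.7%). No cell was tied.

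The study sampled the germ line of the fetal ovary at E12.5, E14.5 and E16.5, with 1 library for each day. The cells are labelled as primordial germ cells of female C57BL/6 fetuses that carry an Oct4-EGFP reporter, in which regulatory sequence of the germ cell gene Oct4 (Pou5f1) drives a green fluorescent protein, and EGFP-positive cells were sorted. The sources used here do not say how many embryos or litters a library pooled. States C, A and B share 1 library, stage, strain, reporter and sort, and cells were assigned to them by the score alone. The states also differ in depth and in somatic cell markers, as described below.

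In the mouse fetal ovary, germ cells stop mitotic division and enter meiosis. Retinoic acid and BMP signals induce Stra8 and Rec8 before the last round of DNA replication. In the prophase that follows, the pluripotency genes are silenced, SPO11 cuts the DNA at sites that PRDM9 marks, and the chromosomes pair along the synaptonemal complex. MEIOSIN and STRA8 bind promoters of meiotic genes, and a short motif with the letters CCTCAG at its core has been reported for STRA8.

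Promoters of 4 genes higher and 1 gene lower in state C are shown because the counts of this motif are given over all genes below. Sequences are those of RefSeq (GRCm38.p6, the build called mm10), 5' to 3', from 250 bases before to 50 bases after the annotated start. Capitals mark CCTCAG or its reverse complement CTGAGG, and the E2F-type letters GCGGGAA. Inca1 and Figla hold 2 matches to CCTCAG each, Msh5 holds 1 of each kind, Rad51ap2 holds the E2F-type letters alone and Cdx2 holds none. The first 4 genes were higher in state C than in states A and B, and Cdx2 was lower than in both. They are examples and do not stand for the shares given below. Gc and Sycp2, also higher in state C, hold no CCTCAG on either strand, while Acot1 and Ddit4, lower in state C, hold it. The windows are chr11:70700106-70700405 (minus strand) for Inca1, chr17:35046573-35046872 (minus) for Msh5, chr6:86016941-86017240 (plus) for Figla, chr12:11455805-11456104 (plus) for Rad51ap2 and chr5:147307200-147307499 (minus) for Cdx2.
Inca1: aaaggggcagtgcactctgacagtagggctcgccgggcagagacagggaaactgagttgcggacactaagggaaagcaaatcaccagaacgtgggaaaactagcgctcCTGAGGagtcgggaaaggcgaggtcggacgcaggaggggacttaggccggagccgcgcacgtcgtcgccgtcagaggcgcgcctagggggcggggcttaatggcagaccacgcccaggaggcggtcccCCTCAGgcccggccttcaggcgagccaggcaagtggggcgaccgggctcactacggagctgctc
Msh5: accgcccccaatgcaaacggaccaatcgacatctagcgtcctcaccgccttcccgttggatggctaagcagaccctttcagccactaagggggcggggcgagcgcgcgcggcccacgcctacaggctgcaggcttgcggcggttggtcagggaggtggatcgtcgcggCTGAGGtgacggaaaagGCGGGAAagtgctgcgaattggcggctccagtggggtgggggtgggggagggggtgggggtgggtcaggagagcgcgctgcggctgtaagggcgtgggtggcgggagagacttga
Figla: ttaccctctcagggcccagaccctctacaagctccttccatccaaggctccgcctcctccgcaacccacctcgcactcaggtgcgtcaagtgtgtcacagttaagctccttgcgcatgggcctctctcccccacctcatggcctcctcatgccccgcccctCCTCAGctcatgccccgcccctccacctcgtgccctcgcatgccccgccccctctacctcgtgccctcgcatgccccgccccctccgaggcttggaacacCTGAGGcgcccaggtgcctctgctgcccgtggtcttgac
Rad51ap2: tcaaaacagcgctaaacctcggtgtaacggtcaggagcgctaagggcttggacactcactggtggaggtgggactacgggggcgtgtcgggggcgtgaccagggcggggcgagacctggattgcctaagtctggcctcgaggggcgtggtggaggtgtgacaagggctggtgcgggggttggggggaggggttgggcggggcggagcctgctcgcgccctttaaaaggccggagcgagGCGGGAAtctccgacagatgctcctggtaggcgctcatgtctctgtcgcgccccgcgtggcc
Cdx2: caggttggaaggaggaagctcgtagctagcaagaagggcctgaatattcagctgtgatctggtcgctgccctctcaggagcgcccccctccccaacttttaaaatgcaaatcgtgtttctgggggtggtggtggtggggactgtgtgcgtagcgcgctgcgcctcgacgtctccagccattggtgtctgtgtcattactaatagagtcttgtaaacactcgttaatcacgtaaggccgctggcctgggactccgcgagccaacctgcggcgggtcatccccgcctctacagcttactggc

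Levels are given as CPM, the UMIs (unique molecular identifiers, 1 per captured RNA molecule) of a gene per 1000000 UMIs of all cells of a state together. Intervals are exact Poisson 95% intervals and cover counting error only. A gene is called higher or lower at a ratio of at least 1.5 in CPM, among 7267 genes with at least 10 CPM over all E14.5 cells. Some genes pass this minimum only through the states where they are high, which favours large ratios. With 1 library and cells sorted into states by their own RNA, no difference between states has a replicate check, and all values are descriptions.

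The members were high in the genes of their own set because these chose them, and the values only describe the choice. Tppp, a tubulin-binding protein, had 21.1 CPM in state C, against 2.74 in state A and 1.51 in state B, and was found in 18.8% of the members. Fgf11, an intracellular FGF family member, had 38.2 CPM in state C, against 10.3 in state A and 6.32 in state B. Mtl5 (TESMIN), a metal-binding protein of meiotic germ cells, had 167 CPM in state C, against 30.9 in state A and 23.9 in state B. At E12.5 the 6 genes of the set lay between 0.0159 CPM (Lypd4) and 2.87 CPM (Madd). All 6 were also lower at E16.5 than in state C, as with Tppp at 5.18 CPM and Mtl5 at 115 CPM, but state C was picked for high levels of them. Over all E14.5 cells, Mtl5 (75.4 CPM) and Syt14 (30.9 CPM) lay below E16.5 (115 and 33.6 CPM). Tppp, Fgf11, Lypd4 and Madd lay above it. Rec8, a meiotic cohesin of the state A set, had 96.1 CPM in state C, against 315 in state A and 183 in state B. UMIs of at least 3 of the 6 own genes were found in 2575 members of state C (71.5%), in 2523 cells of state A (82.7%) and in 413 cells of state B (17.0%). In state B, 249 cells had no UMI of any gene of their own set.

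The border of the state is gradual. The median lead of the highest set over the next was 0.648 in state C, 0.436 in state A and 0.404 in state B, in units of the mean z-score. A lead under 0.25 was held by 702 members of state C (19.5%). The 100 members nearest the border led by 0.0002 to 0.036, and in the 100 cells just outside it set C minus the highest other set was -0.034 to -0.0003. Set B came next in 2588 members (71.9%) and set A in 1012 (28.1%). No UMI of any set B gene was found in 3221 members (89.5%), and none of any set A gene in 1437 (39.9%).

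**Figure D1:**
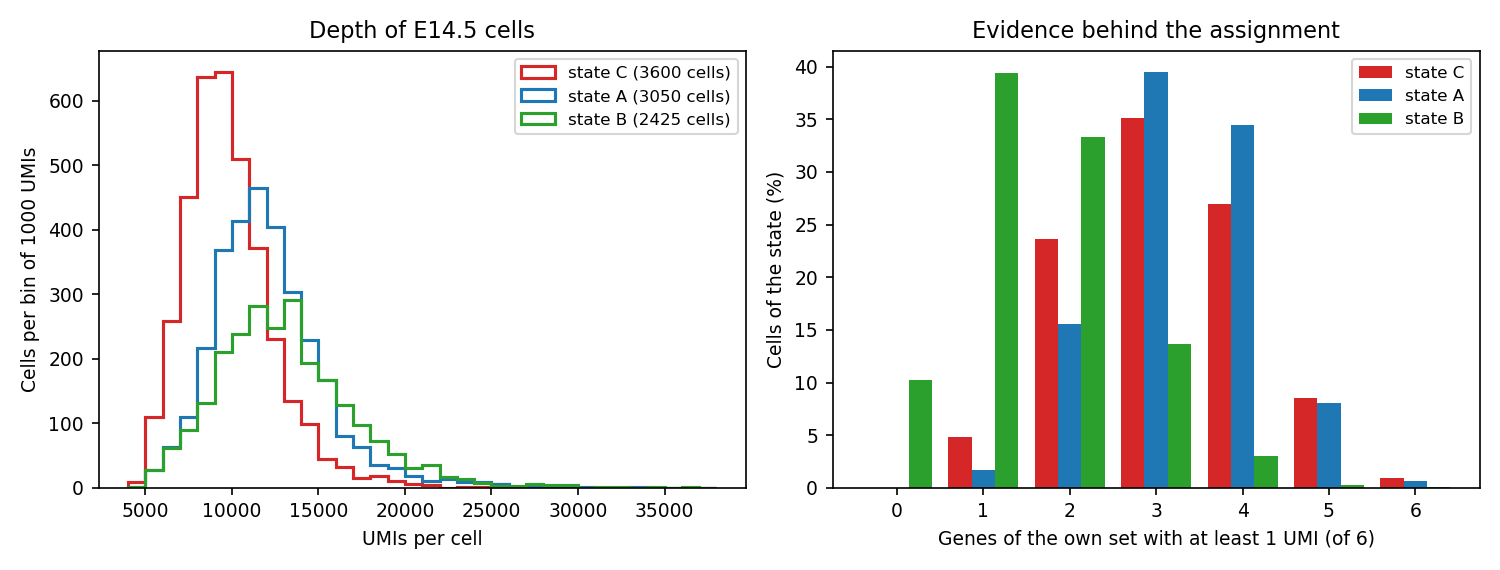
Left, number of E14.5 cells per bin of 1000 UMIs for states C, A and B; right, share of the cells of each state by how many of the 6 genes of their own set had a UMI. State C has the lowest median (9530 UMIs), and most cells of state B have UMIs of 1 or 2 of their own genes.

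State C was the shallowest, as the plot of UMIs per cell shows. Its median was 9530 UMIs per cell, against 11682.5 in state A and 12662 in state B, and the median number of genes was 2837 in state C, 3297 in state A and 3362 in state B. With each cell thinned to 5000 UMIs, the medians were 1922 genes in state C, 1951 in state A and 1905 in state B, after 9, 1 and 1 shallower cells were left out. Mitochondrial UMIs were 2.51% of the total in state C, 2.20% in state A and 2.32% in state B. Restricting all states to cells of at least 9000 and under 12000 UMIs left 1526 cells of state C, 1247 of state A and 731 of state B. In these cells 898 genes were higher and 1558 lower in state C than in state A, with the full sets at 1139 and 1605.

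Markers put the members in the germ line. All 20 germ cell markers were in the table, and their summed level was 10140 CPM in state C, 7304 in state A and 5997 in state B. The single markers were mixed. Of the 18 compared, 6 were higher and 4 lower than in state A, beside 15.7% and 22.1% over all compared genes. Against state B, 10 were higher and 4 lower, beside 23.0% and 23.4%. Pou5f1, Dppa3 and Dnd1 were among those lower than in both. Of the 24 markers of pregranulosa cells, the somatic support cells of the fetal ovary, 22 were in the table. Their summed level was 31.9 CPM in state C, 141 in state A and 137 in state B, and none of the 22 was at 0 in any state. Cells with UMIs of 5 or more of these markers numbered 10 in state C (0.278%), 79 in state A (2.59%) and 69 in state B (2.85%), although the sort on EGFP should leave such cells out. Without these 158 cells the summed level was 21.0 CPM in state C, 47.4 in state A and 51.5 in state B. Across libraries, 173 of 18971 cell barcodes occurred in more than 1 library. Endothelial markers summed to 24.5 CPM in state C, 45.2 in state A and 52.8 in state B (Cdh5 at 0 in state C), and blood and immune markers summed to 1.18 CPM in state C, 3.23 in state A and 2.26 in state B (S100a8 and S100a9 at 0 in all). Erythroid markers were higher in state C, where they summed to 24.0 CPM, against 5.68 in state A and 5.28 in state B.

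Against state A, 1139 genes were higher in state C (15.7% of the genes compared) and 1605 were lower (22.1%). Against state B, 1671 genes were higher (23.0%) and 1699 lower (23.4%). State C was higher than both other states for 1103 genes and lower than both for 1433, and no gene was higher than one and lower than the other. The median log2 ratio over all genes was -0.03 for C over A and 0.04 for C over B. The balance of the 2 directions depends on the scaling. Of the genes called between states C and A, 41.5% were higher in state C with CPM, 61.2% with median-of-ratios scaling (1811 higher, 1150 lower) and 59.3% with TMM scaling (1734 higher, 1188 lower). For states C and B the share was 49.6% with CPM, 62.3% with median-of-ratios scaling and 60.3% with TMM scaling.

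**Figure D2:**
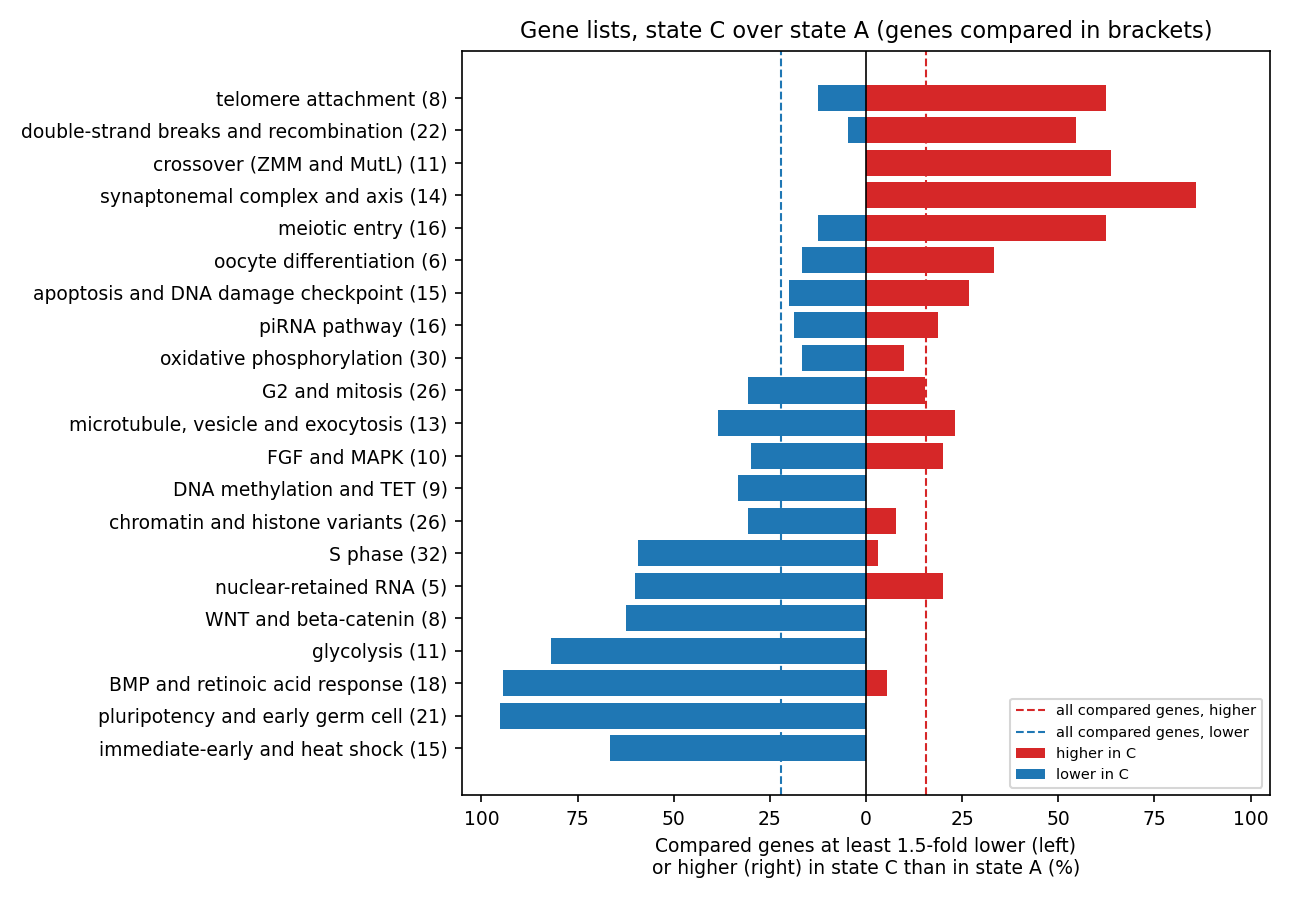
Share of the compared genes of each list that were at least 1.5-fold lower (left, blue) or higher (right, red) in state C than in state A; the number of genes compared is in brackets, and dashed lines mark the shares over all 7267 genes. Meiotic lists lie to the right, and pluripotency, BMP and retinoic acid, and glycolysis lists to the left.

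Genes of meiotic entry were higher in state C in their larger part, with 10 of 16 compared members higher than in state A and 2 lower. The median log2 ratio was 0.79 over A and 1.26 over B, where 10 were also higher and 2 lower. Figla, a transcription factor of oocytes, had 229 CPM (224 to 234) in state C, against 73.8 CPM in state A and 46.0 in state B. It had 1.24 CPM at E12.5 and 217 at E16.5. Taf7l, a germ cell subunit of the general transcription machinery, had 636 CPM in state C, against 230 in state A and 140 in state B. Dmrtc2 had 386 CPM in state C, against 147 in state A and 85.3 in state B. Stra8 itself, the retinoic acid target that starts meiosis, lay between the others and was called in neither comparison. It had 1434 CPM (1421 to 1446) in state C, against 1751 (1737 to 1764) in state A and 1086 (1074 to 1097) in state B, with 3.27 CPM at E12.5 and 273 at E16.5. The 2 lower members were Zglp1, a factor that acts downstream of BMP in oogenic fate, and Dmrt1, a regulator of Stra8. Dmrt1 had 15.2 CPM in state C, against 56.4 in state A and 59.5 in state B. The germ cell helicase gene Ddx4 had 199 CPM in state C, against 221 in state A and 197 in state B, within 1.5-fold of both.

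Proteins of the chromosome axis and the synaptonemal complex were mostly higher in state C, with 12 of 14 compared genes higher than in state A and none lower. Against state B, 12 were higher and 1 lower, and the medians were 0.89 over A and 1.31 over B. Sycp3, which builds the axis, had 1245 CPM (1234 to 1257) in state C, against 453 (446 to 460) in state A and 315 (309 to 322) in state B. Sycp2, its partner, had 116 CPM in state C, against 31.4 in state A and 22.2 in state B. Sycp1, the transverse filament that joins paired axes, differed less, with 627 CPM in state C, 393 in state A and 288 in state B, and stood at 1694 CPM at E16.5. The central element gene Syce3 had 394 CPM in state C, against 115 in state A and 91.5 in state B, and 1144 at E16.5. Smc1b, a meiotic cohesin subunit, had 2483 CPM in state C, against 1312 in state A and 977 in state B. Sycp1, Syce3 and Sycp3 thus stood higher at E16.5 than in state C. Trip13, which removes HORMAD proteins from synapsed axes, had 22.4 CPM in state C, against 31.5 in state A and 35.7 in state B, and was the member lower than in B.

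The list of DNA breaks and recombination had 12 of 22 compared genes higher in state C than in state A and 1 lower, with 14 higher and none lower than in state B. Its medians were 0.97 over A and 1.29 over B. Prdm9, the methyltransferase that marks break sites (chr17:15543079-15564354), had 163 CPM (159 to 167) in state C, against 28.0 (26.3 to 29.7) in state A and 23.8 (22.2 to 25.6) in state B. That is 5.84-fold over A and 6.84-fold over B. Rad51ap2 had 68.2 CPM in state C, against 9.16 in state A and 7.55 in state B, a ratio of 7.45 over A (6.64 to 8.37). Rad51ap2 lay under 10 CPM in states A and B and passed the minimum only through state C. Meiob, which binds single-stranded DNA in repair, had 88.1 CPM in state C, against 14.6 in state A and 13.6 in state B. At E12.5 these 3 genes lay at or under 0.478 CPM, and at E16.5 they had 159 CPM (Prdm9), 78.8 (Rad51ap2) and 131 (Meiob). Prdm9 and Rad51ap2 were then near their levels in state C, while Meiob was above its 88.1 CPM.

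Other members of that list differed by less. Spo11, the enzyme that cuts the DNA, had 56.0 CPM in state C, against 23.7 in state A and 17.7 in state B, and 177 at E16.5. Ankrd31, which places breaks on the sex chromosomes' shared region, had 52.1 CPM in state C, against 13.9 in state A and 10.1 in state B. The strand exchange gene Dmc1 had 205 CPM in state C, against 92.6 in state A and 65.9 in state B. Mnd1, a partner of DMC1, was the lower member, with 39.6 CPM in state C, against 63.1 in state A and 50.5 in state B.

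Detection per cell gave the same order at equal depth. With cells carrying 5 or more pregranulosa markers set apart, a Prdm9 UMI was found in 73.3% of state C cells, 25.3% of state A cells and 21.2% of state B cells. With each cell thinned to 5000 UMIs, the shares were 53.2% in state C, 12.9% in state A and 11.1% in state B. The cells with pregranulosa markers, which should lack the gene, showed it in 12.03% at a median of 8559 UMIs and in 5.70% when thinned. Meiob was found after thinning in 35.2% of state C cells, 7.07% of state A cells and 6.96% of state B cells, against 2.53% of the cells with pregranulosa markers. Sycp3 was found after thinning in 98.5% of state C cells, 81.6% of state A cells and 61.8% of state B cells, against 25.95% of the cells with pregranulosa markers. The exact binomial 95% intervals for thinned Prdm9 were 51.5% to 54.8% in state C, 11.7% to 14.2% in state A, 9.84% to 12.4% in state B and 2.64% to 10.5% in the marker-bearing cells, and the interval of state B overlaps that of the marker-bearing cells.

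**Figure D3:**
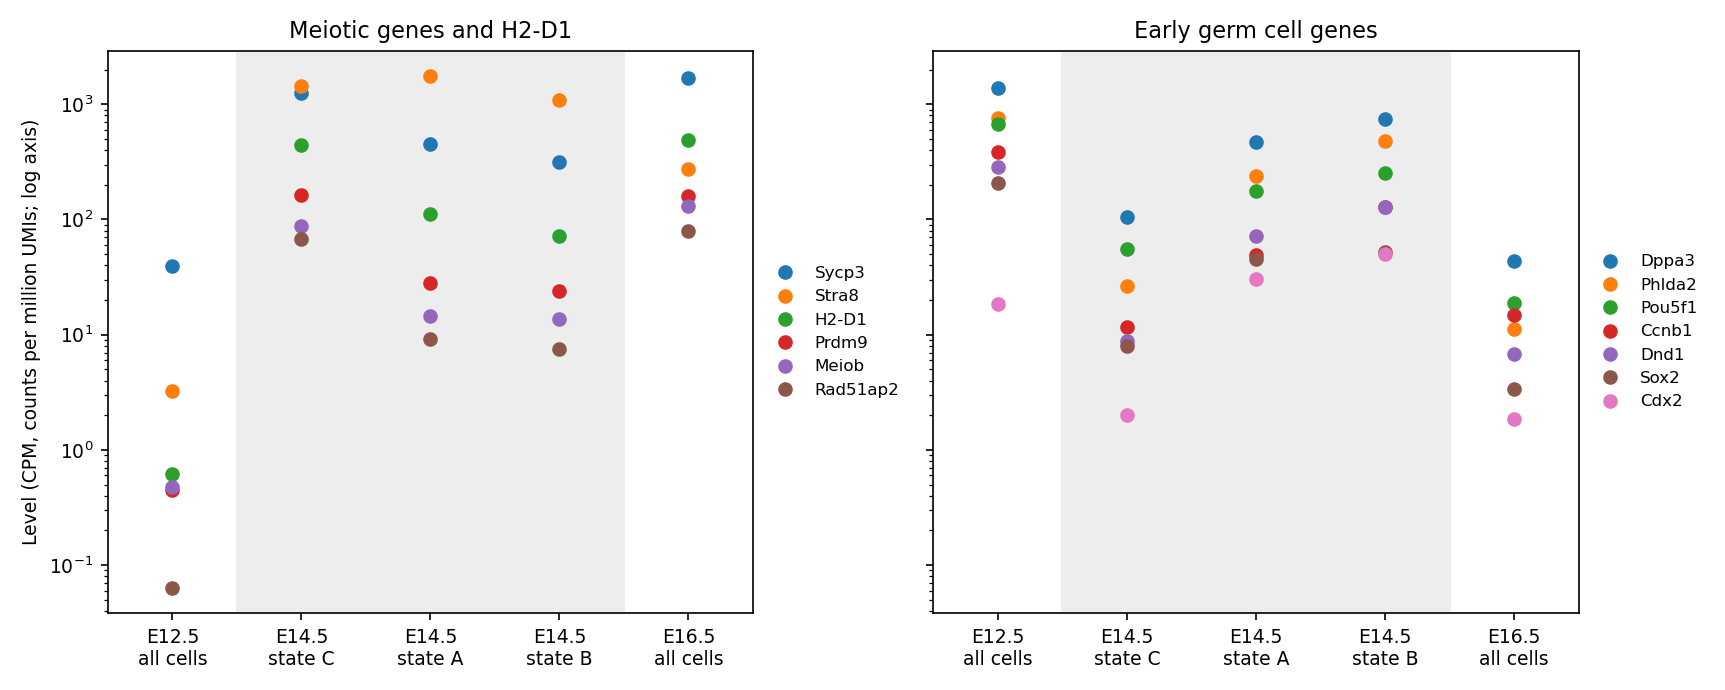
Levels (CPM, log axis) of 6 genes higher at E16.5 than E12.5 (left) and 7 early germ cell genes (right) over all E12.5 cells, the 3 states of E14.5 (grey band) and all E16.5 cells. Of the 3 states, C lies nearest to E16.5 in Prdm9, Meiob, Rad51ap2 and H2-D1, and Stra8 is highest at E14.5.

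Genes that turn recombination into crossovers followed. Of 11 compared genes, 7 were higher in state C than in state A and 10 higher than in state B, with none lower, and medians of 0.94 and 1.63. Msh5, a subunit of the MutS heterodimer that stabilises crossover intermediates, had 89.3 CPM in state C, against 21.6 in state A and 18.9 in state B. The crossover helicase gene Hfm1 had 113 CPM in state C, against 44.0 in state A and 31.6 in state B. Of 8 compared genes of telomere attachment to the nuclear envelope, 5 were higher than in state A and 1 lower, with the same counts against B and medians of 1.01 and 1.44. Ccdc79 (TERB1), which ties telomeres to the envelope, had 108 CPM in state C, against 32.1 in state A and 21.6 in state B. Spdya, an activator of CDK2 at telomeres, had 200 CPM in state C, against 58.6 in state A and 40.0 in state B. Inca1, an inhibitor of CDK2, had 308 CPM (302 to 314) in state C, against 65.0 in state A and 50.1 in state B, with 0.780 CPM at E12.5 and 332 at E16.5.

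The largest ratio over state A was that of Gc, the vitamin D-binding protein, and MHC genes were among the next. Gc had 28.3 CPM (26.6 to 30.1) in state C, against 2.36 (1.89 to 2.92) in state A and 4.09 (3.42 to 4.85) in state B. That is 11.99-fold over A (9.62 to 15.1), and Gc reached 180 CPM at E16.5. H2-D1, an MHC class I heavy chain, had 440 CPM in state C, against 112 in state A and 72.1 in state B, and 0.613 CPM at E12.5. H2-Ab1, an MHC class II chain, had 160 CPM in state C, against 38.4 in state A and 25.3 in state B. Reads of H2-D1 and other class I genes can match near-identical copies, so its level is uncertain. Also among the 15 largest ratios were Nacad at 5.76-fold, Grk4 at 5.18-fold, Fbxo47 at 4.46-fold and Ap1s2 at 3.94-fold over A. Gc, Grk4 and Ap1s2, like Rad51ap2 above, lay under 10 CPM in states A and B and passed the minimum only through state C. Fbxo47, an F-box protein needed to keep synapsed chromosomes together in mouse meiosis, had 62.5 CPM in state C, against 14.02 in state A and 12.3 in state B.

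Pluripotency and early germ cell genes were lower in state C nearly throughout. Of 30 listed genes, 9 lay under 10 CPM over the E14.5 cells and were not compared, among them Tdgf1 at 0 in all 3 states. Of the 21 compared genes, 20 were lower than in state A and all 21 lower than in state B, with none higher, and medians of -1.68 and -2.20. Pou5f1, whose regulatory sequence drives the sorted reporter, had 55.4 CPM (53.0 to 57.9) in state C, against 177 (173 to 182) in state A and 256 (250 to 261) in state B. It had 679 CPM at E12.5 and 18.9 at E16.5. Sox2, its partner, had 7.98 CPM in state C, against 45.5 in state A and 52.1 in state B. Dppa3 (STELLA), a protector of maternal methylation, had 104 CPM in state C, against 467 in state A and 740 in state B. Sall4, a germ cell and stem cell factor, had 8.45 CPM in state C, against 48.8 in state A and 69.6 in state B. Zfp42 (REX1) was the compared member within 1.5-fold of state A, with 16.3 CPM in state C, 24.4 in state A and 26.0 in state B. A Pou5f1 UMI was found after thinning in 20.4% of state C cells, 53.4% of state A cells and 61.9% of state B cells, against 8.86% of the cells with pregranulosa markers.

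The deficit of state C was larger against state B than against state A for Dnd1, which guards germ cell survival, and for Phlda2, an imprinted growth regulator. Dnd1 had 8.76 CPM in state C, against 72.4 in state A and 127 in state B. Phlda2 had 26.6 CPM in state C, against 236 in state A and 483 in state B, 8.89-fold lower than A and 18.2-fold lower than B. Cdx2, a homeobox factor of trophectoderm and posterior development, had the largest deficit, with 2.02 CPM (1.58 to 2.55) in state C, against 30.6 (28.8 to 32.4) in state A and 49.97 (47.5 to 52.5) in state B. Cdx2 had 18.4 CPM at E12.5 and 1.85 at E16.5. Tcl1, a coactivator of AKT, was 13.3-fold lower than in state B, with 2.56 CPM in state C, 13.0 in state A and 34.1 in state B.

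Most listed genes of the BMP and retinoic acid response were also lower. Stra8, itself a retinoic acid target, is not in this list and was called in neither comparison. In the list of BMP and retinoic acid response, 17 of 18 compared genes were lower in state C than in state A, 17 were lower than in state B and 1 was higher in each, with medians of -1.30 and -1.39. Msx1 of the state A set is itself a BMP target, so this list is not separate from the rule. Id3, a BMP target, had 355 CPM in state C, against 799 in state A and 581 in state B. Msx2, another BMP target, had 10.95 CPM in state C, against 51.1 in state A and 53.7 in state B. Rhox5, a homeobox gene of the reproductive tract, had 173 CPM in state C, against 519 in state A and 615 in state B. Of 8 compared WNT genes, 5 were lower than in state A and none higher, and 5 were lower and 1 higher than in state B. Axin2, a feedback target of beta-catenin, had 7.02 CPM in state C, against 36.0 in state A and 33.9 in state B. Ctnnb1, beta-catenin itself, had 138 CPM in state C, 157 in state A and 154 in state B. The state A set holds the WNT targets Sp5 and Ccnd1, and the same limit holds.

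Of the cell cycle lists, S phase was lower in part, and G2 and mitosis was mixed. Of 32 S phase genes, 19 were lower in state C than in state A, 15 lower than in state B, and 1 higher in each comparison. Tyms, which makes thymidylate for DNA synthesis, had 19.6 CPM in state C, against 69.3 in state A and 80.8 in state B. Cdc6, which licenses replication origins, had 7.95 CPM in state C, against 24.3 in state A and 17.0 in state B. The helicase gene Hells had 1036 CPM in state C, 916 in state A and 824 in state B. Of 26 compared genes of G2 and mitosis, 8 were lower and 4 higher than in state A. Against state B, 12 were lower and 3 higher. Over all compared genes, 22.1% were lower and 15.7% higher than in state A, and 23.4% and 23.0% against state B. Ccnb1, cyclin B1, had 11.8 CPM in state C, against 49.1 in state A and 127 in state B. Top2a, a topoisomerase, went the other way with 404 CPM in state C, 298 in state A and 246 in state B. The median log2 ratio of this list was 0.02 over A and -0.32 over B, and the median over B was 0.02 in cells of at least 9000 and under 12000 UMIs.

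Glycolysis genes were lower in state C, and most genes of oxidative phosphorylation were within 1.5-fold. Of 11 compared glycolysis genes, 9 were lower in state C than in state A, 9 lower than in state B and none higher, with medians of -1.28 and -1.91. Aldoa, aldolase, had 65.6 CPM in state C, against 209 in state A and 258 in state B. Ldha, lactate dehydrogenase, had 22.5 CPM in state C, against 74.5 in state A and 84.7 in state B. Of 30 genes of oxidative phosphorylation, 22 were within 1.5-fold of state A, with 3 higher and 5 lower. Ndufa1, a subunit of complex I, had 1305 CPM in state C, against 547 in state A and 472 in state B. Cox7b, a subunit of complex IV, had 41.2 CPM in state C, against 134 in state A and 334 in state B, and Cox4i1 of the same complex had 2288 CPM in state C, 2277 in state A and 2196 in state B.

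Checkpoint and cell death genes were mixed, with 4 of 15 compared genes higher and 3 lower than in state A, and 5 higher and 3 lower than in state B. Over all compared genes, 15.7% were higher and 22.1% lower than in state A, and 23.0% higher and 23.4% lower than in state B. Trp53 (p53) had 5.79 CPM in state C, against 27.7 in state A and 55.4 in state B. Its target Cdkn1a (p21) had 7.75 CPM in state C, against 54.8 in state A and 72.6 in state B. Atr, a kinase of the meiotic checkpoint, had 232 CPM in state C, against 99.5 in state A and 78.5 in state B. In the piRNA pathway, which silences transposons, 3 of 16 compared genes were higher and 3 lower than in state A, and 7 higher and 3 lower than in state B. The piRNA counts against state A lay near the shares over all compared genes. Gpat2 had 299 CPM in state C, against 140 in state A and 111 in state B, while Tex19.1 had 95.9 CPM in state C, against 247 in state A and 229 in state B. Of the 6 compared genes of oocyte differentiation, 2 were higher and 1 lower than in state A. Cpeb1, which controls translation in oocytes, had 107 CPM in state C, against 70.1 in state A and 66.6 in state B. Ooep of the maternal complex had 4.47 CPM in state C, against 12.7 in state A and 18.9 in state B.

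Counts for DNA methylation and chromatin stand beside the shares over all compared genes, 15.7% higher and 22.1% lower than in state A. The lists are short, and their counts were not tested against these shares. Of 9 compared genes of DNA methylation, none was higher and 3 were lower than in state A, with a median of -0.09 that turned to 0.11 under median-of-ratios scaling. Dnmt3a, a de novo methyltransferase, had 7.08 CPM in state C, against 15.3 in state A and 15.2 in state B. Tet1, which oxidises methylated cytosine, had 4.52 CPM in state C, against 10.4 in state A and 20.002 in state B. Of 26 chromatin genes, 2 were higher and 8 lower than in state A. Hmgb3 had 144 CPM in state C, against 361 in state A and 372 in state B. The microtubule and vesicle list, to which Tppp belongs by function, had 3 of 13 compared genes higher and 5 lower than in either state. Tuba1b, an alpha-tubulin with close copies, had 117 CPM in state C, against 410 in state A and 731 in state B. Synj1, which recycles synaptic vesicles, had 49.1 CPM in state C, against 17.7 in state A and 13.995 in state B. The FGF and MAPK list had 2 of 10 compared genes higher and 3 lower than in either state, with a median of -0.06 over A that turned to 0.15 under median-of-ratios scaling. Etv5, an FGF target, had 5.22 CPM in state C, against 11.95 in state A and 15.5 in state B.

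A few genes moved with the cells that carried pregranulosa markers. Xist, the RNA of the inactive X chromosome, had 3.34 CPM in state C, against 28.4 in state A and 29.3 in state B. Without the 158 cells it had 0.366 CPM in state C, 0.416 in state A and 3.11 in state B. A Xist UMI was present in 155 of those 158 cells (98.1%), against 0.362% of the other cells of state C. Kctd14 was 6.88-fold lower in state C than in state A with all cells and 2.05-fold lower without them, and Anxa2, a membrane-binding protein, was 6.78-fold and 2.26-fold lower. Hes1, a Notch target, was 6.34-fold lower with all cells and 2.83-fold without them. The median of the list of immediate-early and heat shock genes was -2.23 over A with all cells and -0.99 without them, with 10 of 15 compared genes lower both ways. Jun, a stress-response factor, had 3.17 CPM in state C, against 17.7 in state A and 23.2 in state B, and was 5.57-fold lower than in A with all cells and 1.98-fold without. The list of nuclear-retained RNA had 1 of 5 compared genes higher and 3 lower than in state A, with a median of -1.16 that was -0.18 without the 158 cells. Without the 158 cells Prdm9 was 5.79-fold higher, Sycp3 2.72-fold higher and Sox2 5.77-fold lower than in state A. Over all genes, 1134 were then higher (15.6%) and 1589 lower (21.9%) than in state A, and 1683 higher (23.2%) and 1690 lower (23.3%) than in state B.

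**Figure D4:**
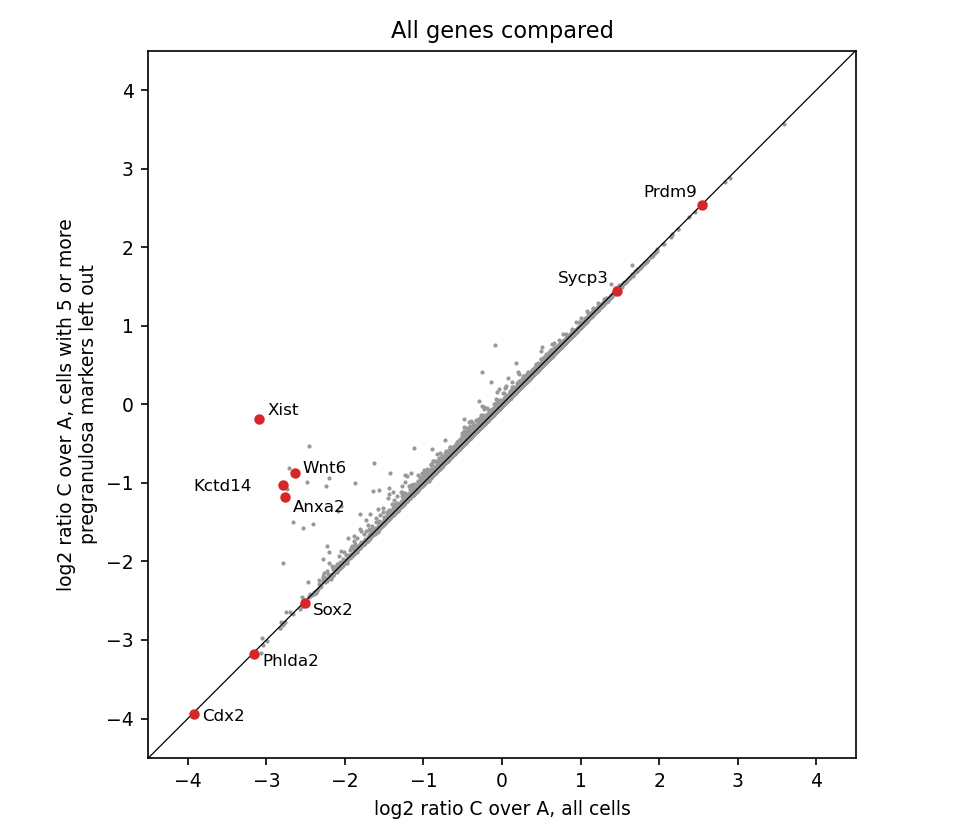
Log2 ratio of state C over state A for the genes compared, with all cells (horizontal) and with the 158 cells of 5 or more pregranulosa markers left out (vertical). Most points lie on the diagonal, and Xist, Kctd14, the pregranulosa marker Wnt6 and Anxa2 lie well above it.

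Members differed among themselves along their lead over the next set. Sorted by that lead and cut into 4 groups of 900, from the lowest to the highest, Prdm9 had 110, 153, 187 and 210 CPM. Sycp3 had 968, 1248, 1372 and 1423 CPM in the same order. Stra8 ran the opposite way with 1671, 1508, 1328 and 1197 CPM. Dppa3 had 184, 103, 68.4 and 53.3 CPM, and Sox2 had 15.3, 9.99, 3.70 and 2.005 CPM. Median depth was 10171, 9607, 9312.5 and 9187.5 UMIs over these groups. The group with the smallest lead had more Prdm9 than all cells of states A (28.0 CPM) and B (23.8 CPM), and less Dppa3 than A (467 CPM) and B (740 CPM). Cells of A and B with a small lead were not set apart. The lead comes from the same scores that chose the members, so these trends describe the choice. Where set A came next, members had 1881 CPM of Stra8, 99.5 of Prdm9 and 10.0 of Gc, and where set B came next they had 1235 of Stra8, 192 of Prdm9 and 36.5 of Gc.

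**Figure D5:**
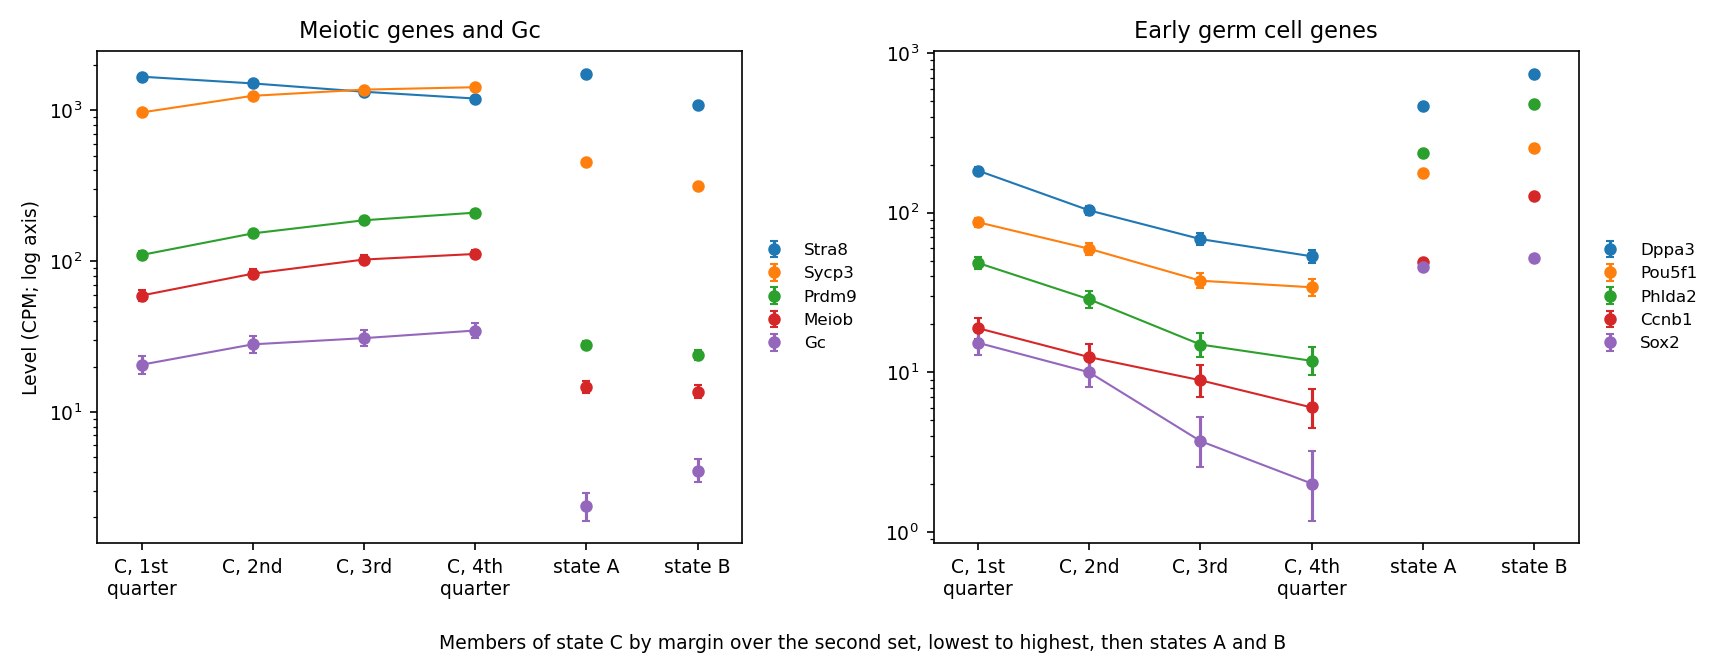
Levels (CPM, log axis, exact Poisson 95% intervals) of 5 meiotic or late genes (left) and 5 early germ cell genes (right) in the members of state C cut into 4 groups of 900 by their lead over the next set, then in states A and B. Sycp3, Prdm9, Meiob and Gc climb and Stra8 and the early genes decline across the 4 groups.

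The other days were not used to form the states. Of the 1139 genes higher in state C than in state A, 1045 (91.7%) were higher at E16.5 than at E12.5 and 2 were lower, beside 40.6% higher and 26.5% lower over all compared genes. Of the 1605 genes lower in state C, 1113 (69.3%) were lower at E16.5 than at E12.5 and 152 (9.47%) higher. Seen from the stages, genes higher in state C made up 35.4% of the 2948 genes higher at E16.5, and genes lower in state C made up 57.8% of the 1924 genes lower. Of the 1103 genes higher in state C than in both states, 813 were within 1.5-fold of their E16.5 level, 125 were higher still at E16.5 and 165 were lower there. Of the 1433 genes lower than in both, 726 were within 1.5-fold of E16.5, 376 were lower still at E16.5 and 331 were higher there. Shares of state C against E16.5 over all compared genes were not computed. These counts therefore do not show whether the called genes differ from the rest in this. With 1 library at each stage, a difference of stage and one of library cannot be told apart.

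The promoter windows shown above were read for all compared genes with exactly 1 annotated promoter, 4558 in number. CCTCAG on either strand was in 42.4% of the promoters of genes higher in state C than in both states (284 of 670), in 20.3% of those lower than in both (177 of 872) and in 27.4% of all (1250). The E-box letters CACGTG were in 9.70% of the promoters of higher genes, 12.2% of those of lower genes and 11.2% of all. The E2F-type letters GCGGGAA were in 10.9% of the promoters of higher genes, 9.63% of those of lower genes and 10.6% of all. Matches of different motifs could share at most 1 letter. Median GC content was 63.3% for higher genes, 62.0% for lower genes and 62.0% for all. In Inca1 the matches lie at positions -14 and -142 from the start, in Msh5 at -82, and in Figla at -89 and 12. A match describes the letters in the window and does not show binding.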

How the data were processed

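Single-cell RNA was measured in 3 libraries of Oct4-EGFP-positive female germ cells, captured with the 10x Genomics kit for 3' ends, version 2, per the labels' protocols. Cell Ranger 2.0.0, FastQC and mm10 are named in the submitters' processing notes, and the sources give no settings or filters. For 14133 genes in 19144 cells the authors deposited natural log values, ln(1 + UMIs x 10000 / total of the cell). Undoing the log gave whole UMIs for 100.0% of 68606039 values within 0.01 (largest distance 0.00024). The E12.5, E14.5 and E16.5 libraries held 4706, 9075 and 5363 cells at medians of 26691.5, 10960 and 12659 UMIs.

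The natural log values were z-scored per gene over E14.5 cells (population SD) to assign states. UMIs were then summed per state and given as CPM. Between stages, levels under 3 UMIs were set to that floor. With 1 library per stage no test was made and no p-value computed. Members, lists and markers were chosen with earlier results of these data known. Named genes were the 15 largest ratios in each direction over A and the 10 over B, with at least 20 CPM required in whichever state was higher, and in each of 21 lists the 3 highest in state C and the 3 largest ratios. Members of the lists of meiotic entry, synaptonemal complex and axis, breaks and recombination, and pluripotency could all be named. Mitochondrial, ribosomal protein, haemoglobin, Rik and most Gm symbols were left out of the largest ratios, and Wnt6, which is marked in a plot, was picked after its values were seen. Scrublet in scanpy 1.11.5, at an expected 6% rate, called 6 of 9075 cells (0.0661%), 2 in each state. A failed caller and an earlier removal of doublets would look the same here, so doublets may remain. Alternatives were other scores, cell filters, scalings, thinning and thresholds. The scalings follow the median-of-ratios and TMM formulas, in numpy 2.4.6. Of the compared genes 7063 matched the GENCODE annotation (vM21) by symbol, which gave the gene coordinates, while promoters came from RefSeq. A few named genes are not reported here. Recovery of known folds was tested on simulated counts.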

Additional observations from a re-analysis of the deposited data

How the results depend on the processing

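No paired analysis was possible because each stage is 1 library and the 3 states are cells of 1 library. The number of members was 39.0% to 40.1% of E14.5 cells when scores used linear values, thinned cells, or cells with few pregranulosa markers. These shares do not show whether the same cells stayed members. The count of genes higher in state C than in A (1139) became 1811 with median-of-ratios scaling, 1734 with TMM scaling, 2104 at a minimum of 30 UMIs, 421 at a minimum of 50 CPM and 318 at 2-fold. Genes lower than in A (1605) became 4832, 385 and 796 under those last 3 settings. Genes higher than in B (1671) became 2865, 634 and 766, and genes lower than in B (1699) became 4840, 440 and 931. Scaling moved the median of all genes by 0.21 (log2) for C over A and 0.17 for C over B with median-of-ratios, and by 0.19 and 0.14 with TMM. Among cells with UMIs of at least 3 own genes, Kctd14 (C over B) had 0.0527 and Xist (C over B) 1.42, both turned in sign, and 413 cells of state B remained. The cause was not tested. Of 3820 values for named genes under all settings, 3738 moved by less than 1.5-fold and 80 by more, 30 of these under that setting. List medians that changed sign were those of DNA methylation (C over A 0.11 and 0.09, C over B 0.03 and 0.004 under median-of-ratios and TMM), FGF and MAPK (C over A 0.15 and 0.13), chromatin (C over B 0.13 and 0.10), microtubule and vesicle genes (C over A -0.05 thinned, -0.04 at 9000 to under 12000 UMIs and -0.02 at a lead of 0.25) and G2 and mitosis (C over B 0.02 at 9000 to under 12000 UMIs). The depth window, and list medians with cells left out, were chosen after seeing the data. Depth limits calls below 10 CPM, and stages cannot be told apart from libraries.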

Other observations

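Some genes stood higher in the Tppp-Fgf11 state than in states A and B and than in the E12.5 and E16.5 libraries as a whole. Of the 1103 genes higher than in states A and B, 164 were also at least 1.5-fold above the levels over all E12.5 cells and over all E16.5 cells. The share over all compared genes was not computed. State C is a chosen part of its library, while the other days are whole libraries. The genes given here were chosen after their values were seen. Nmb, the peptide neuromedin B, had 138 CPM in state C, against 72.5 in state A and 58.7 in state B, with 12.1 CPM at E12.5 and 61.6 at E16.5. Evi5l, a Rab-regulating protein, had 61.8 CPM in state C, against 20.1 in state A and 14.7 in state B, with 3.73 CPM at E12.5 and 30.9 at E16.5. Setdb2, a histone methyltransferase family member, had 40.9 CPM in state C, against 20.9 in state A and 14.7 in state B. Sgpl1, which degrades sphingosine phosphate, had 170 CPM in state C, against 86.6 in state A and 68.7 in state B.

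Other MHC genes did not all follow H2-D1 and H2-Ab1. H2-K1, a class I chain with close copies, had 472 CPM in state C, against 130 in state A and 86.2 in state B. B2m, the shared light chain, had 26.8 CPM in state C, 22.7 in state A and 20.6 in state B, and the peptide transporter gene Tap1 had 1.35 CPM in state C, against 4.59 in state A and 3.55 in state B. Of 272 compared X-linked genes, 17.3% were higher and 30.1% lower in state C than in state A, with a median log2 ratio of -0.07, beside 15.5% and 21.8% of 6779 autosomal genes. The 4 haemoglobin genes in the table summed to 24.0 CPM in state C, against 5.68 in state A and 5.28 in state B. These red blood cell RNAs were higher in the shallowest state, and their source was not tested.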
